A study of Mus musculus with 5 samples.

Results

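The B cell identity and receptor signalling genes were a set of 33 of the 54113 named genes in the count table of libraries labelled as MC-38 tumour tissue from mice kept in the warm or in the cold. The members were chosen by gene symbol for their function in B cells, with earlier results of these data known, and the values that selected them were the number of counts of each library at 30 °C and at 4 °C, scaled to a common total of 1000000 (CPM). The contrast between the temperatures is therefore part of the choice, and its values for the members are given as a description, with the fit's p-values entering only as counts set beside the share over all genes. All 33 symbols were found, none of them occurred in more than 1 row, and all 33 passed the filter on low counts. The lowest count of any member in any library was 142.

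The study asked how the RNA of tumours differs between mice housed at thermoneutrality and mice housed in the cold. Tumours were grown from MC-38, a single mouse colon carcinoma line, in C57BL/6 mice that were housed at 30 °C or at 4 °C for 2 weeks, and total RNA of the removed tumour tissue was sequenced. There were 3 libraries at 30 °C and 2 at 4 °C. The study's general methods describe mice of both sexes that were first adapted to a cool room and MC-38 cells placed under the skin or, in another model, in the liver, and do not tie a site, age or sex to these libraries. The study calls the replicates biological samples. That each came from a separate mouse is not spelled out, and the errors below measure the spread between libraries.

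B cells recognise antigen with a membrane immunoglobulin that has no signalling part of its own. Its signal passes through the paired chains encoded by Cd79a and Cd79b to the kinases Lyn, Blk, Syk and Btk, the adaptor Blnk and the phospholipase Plcg2, and it is tuned by co-receptors such as the complement receptor Cr2 and the inhibitory lectin Cd22. Pax5 and Ebf1 set and hold B cell identity, Spib, Pou2f2 and its coactivator Pou2af1 act in mature B cells, the receptors Tnfrsf13c and Tnfrsf13b bind the survival factor BAFF, and Notch2 directs B cells to the splenic marginal zone, the B cell layer around the follicles that faces the blood.

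Several of these transcription factors bind short DNA letters that can be looked for at the members' own starts. RefSeq promoters (GRCm38.p6) were at hand for 28 of the 33 members, and within the 250 bases before each start 16 of the 28 held at least 1 of the searched motifs on either strand. The octamer ATGCAAAT, the element read by Pou2f2, was found in 2 members (7.14%), Blnk and Vpreb3, and in 1.81% of the 27025 genes with a promoter. The EBF motif TCCCNNGGGA was found in Cd22 alone (3.57% of the members, 0.914% of all genes), and the Ets purine box GAGGAAG in Cd37, Cd72, Fcrl1 and Dtx1 (14.3% and 12.0%). The E-box CAGGTG, a site of E proteins, was found in 12 members (42.9%) and in 19.4% of all genes. No match overlapped another. These are matches of letters and not measured binding, and the following stretches show 1 example of the octamer and of the EBF motif and the E-box of 3 members whose counts are described below, each 5′ to 3′ on the strand of the gene with the motif in capitals and cut to the bases outside annotated exons. The stretch of Cd79a ended 117 bases before its RefSeq start, where an annotated exon begins.

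Vpreb3 (octamer), chr10:75948050-75948299, plus strand: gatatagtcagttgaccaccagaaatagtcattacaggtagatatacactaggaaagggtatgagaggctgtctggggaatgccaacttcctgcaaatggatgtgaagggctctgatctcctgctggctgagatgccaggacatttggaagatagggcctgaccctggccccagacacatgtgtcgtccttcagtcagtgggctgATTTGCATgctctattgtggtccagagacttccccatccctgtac
Cd22 (EBF motif), chr7:30879029-30879176, minus strand: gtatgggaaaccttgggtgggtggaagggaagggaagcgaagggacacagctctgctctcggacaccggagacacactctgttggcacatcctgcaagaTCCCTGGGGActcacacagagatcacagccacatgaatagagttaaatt
Cd79a (E-box), chr7:24897247-24897380, plus strand: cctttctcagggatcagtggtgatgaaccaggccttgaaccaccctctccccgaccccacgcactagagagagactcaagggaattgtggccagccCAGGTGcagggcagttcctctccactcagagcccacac
Cr2 (E-box), chr1:195176720-195176969, minus strand: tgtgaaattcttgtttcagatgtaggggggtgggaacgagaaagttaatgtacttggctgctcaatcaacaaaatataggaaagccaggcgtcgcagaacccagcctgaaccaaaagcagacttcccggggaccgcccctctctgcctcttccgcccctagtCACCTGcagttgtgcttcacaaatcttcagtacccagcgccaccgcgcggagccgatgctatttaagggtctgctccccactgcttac
Fcrla (E-box), chr1:170927584-170927833, minus strand: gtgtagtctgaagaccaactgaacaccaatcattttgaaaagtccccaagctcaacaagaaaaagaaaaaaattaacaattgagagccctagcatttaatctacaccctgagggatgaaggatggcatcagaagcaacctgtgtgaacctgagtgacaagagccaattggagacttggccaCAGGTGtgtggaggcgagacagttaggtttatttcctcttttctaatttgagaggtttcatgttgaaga

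The libraries held 16191708 to 20320525 counts on named genes, at which 3 counts, the lowest number taken as detected, correspond to 0.148 to 0.185 CPM. In 30 °C replicate 2, 31.1% of the counts came from a list of 37 pancreatic acinar genes, which lowers the CPM of every other gene there, so that values are also given on counts without these genes or after scaling by the trimmed mean of M values (TMM). The labelled tissue is tumour, yet epithelial and carcinoma markers were low, with a summed level of 20.4 to 134 CPM over 10 genes, and Krt19, a keratin of simple epithelia, had 0 counts in 30 °C replicate 3 and in 4 °C replicate 1. Tlx1, a homeobox gene of splenic stroma, was present at 19.2, 10.5 and 18.7 CPM at 30 °C and at 30.2 and 27.4 CPM at 4 °C. The summed level of the 33 B cell genes was 25.0 to 440-fold that of the 10 genes of the epithelial list. This ratio is not corrected for the number or the length of the genes. How much of each library is tumour, and how much is spleen, pancreas or other tissue, is not settled by these values, so that a level below is a level in the labelled library and not one shown to be in tumour.

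The B cell genes were low in 30 °C replicates 1 and 2 and high in the other 3 libraries, so that their level did not divide the libraries by temperature. Summed over the 33 members it was 3919, 3341 and 8607 CPM at 30 °C and 8958 and 7172 CPM at 4 °C, with means of 5289 ± 2888 (SD, n = 3) and 8065 ± 1263 (SD, n = 2). The level of 30 °C replicate 3 lay between those of the 4 °C libraries. The Wilson 95% intervals were narrow, at 3313 to 3369 CPM for 30 °C replicate 2 and 8915 to 9001 CPM for 4 °C replicate 1, and like all counting intervals they hold no variation between tumours. Without the acinar genes in the totals, 30 °C replicate 2 stood at 4852 CPM and 30 °C replicate 1 at 3919 CPM. In RNA from a whole tissue, fewer cells of a type and less RNA per cell cannot be told apart.

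**Figure D1:**
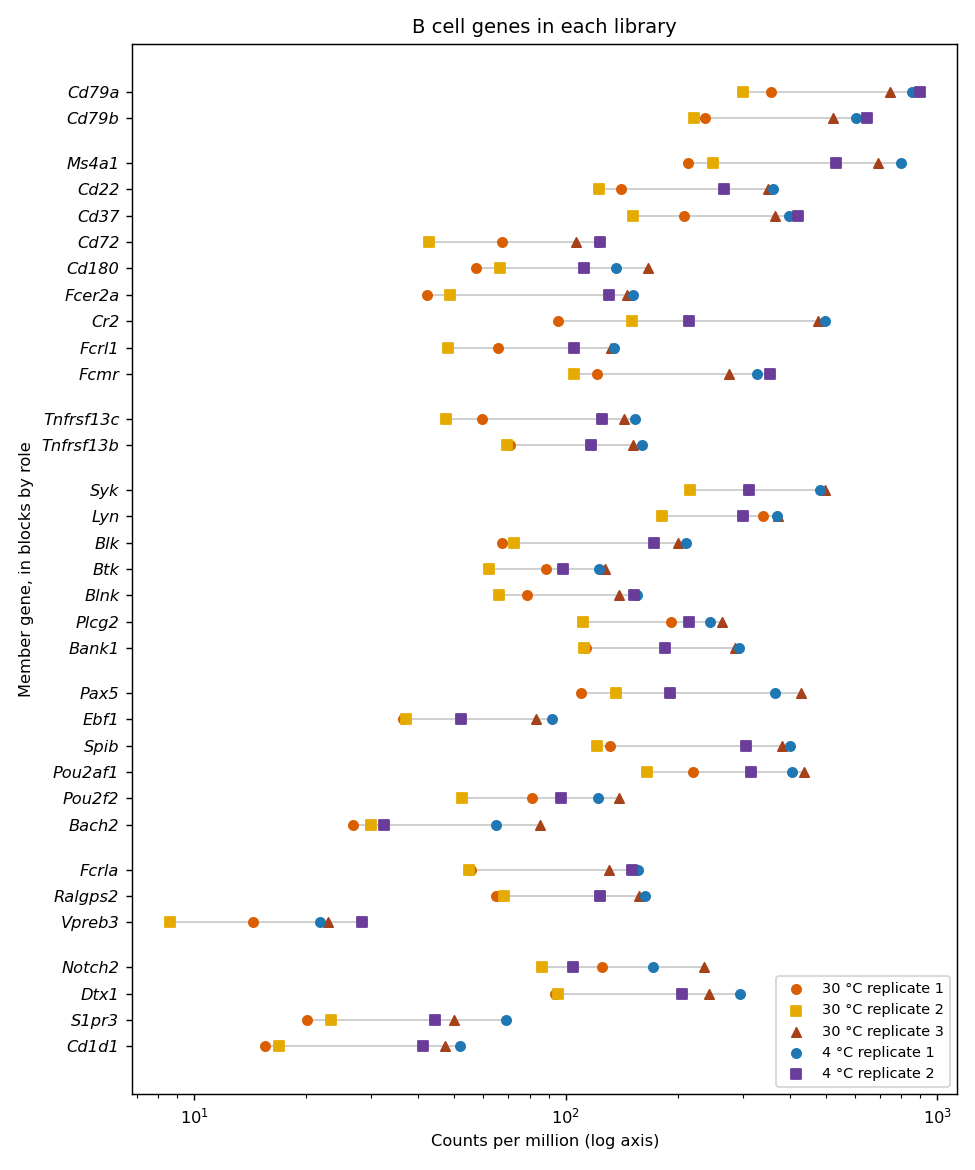
Level of each of the 33 B cell genes in CPM (log axis) in the 5 libraries, in blocks by role, with a line from the lowest to the highest library of a gene. In all 33 genes 30 °C replicate 3 lies above 30 °C replicates 1 and 2, and 26 of the 33 genes overlap between the temperatures.

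Of the 33 members, 30 °C replicate 3 was above both other 30 °C libraries in 33, against 52.7% of the 16133 genes tested, and this count was 33 also without the acinar genes (43.2% of genes) and after TMM scaling (36.8%). The ratio of 30 °C replicate 3 to 30 °C replicate 1 had a median of 2.28 over the members (1.10 to 5.02), and that to 30 °C replicate 2 a median of 2.55 (2.06 to 3.18). By contrast, 4 °C replicate 1 differed little from 30 °C replicate 3, with a median ratio of 1.04 (0.732 to 1.38). Both 4 °C libraries were above 30 °C replicates 1 and 2 in 31 members, or in 26 without the acinar genes and 29 after TMM scaling, against 26.6%, 18.8% and 20.4% of all genes tested. A member was highest in 4 °C replicate 1 in 17 cases, in 30 °C replicate 3 in 10 and in 4 °C replicate 2 in 6, and lowest in 30 °C replicate 2 in 21 cases and in 30 °C replicate 1 in 12. Without the acinar genes, and likewise after TMM scaling, the lowest library was 30 °C replicate 1 in 27 cases, 30 °C replicate 2 in 5 and 4 °C replicate 2 in 1.

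In the fit over all genes, 31 members had a positive and 2, Bach2 and Notch2, a negative log2 fold change at 4 °C over 30 °C. The median of the 33 was 0.55 (−0.18 to 0.96) beside 0.01 over all genes tested. None of the members passed an adjusted p of 0.05 with edgeR, which called 0 of 16133 genes (0%), or with DESeq2, which called 112 of 15239 genes (0.735%). At an unadjusted p under 0.05 edgeR gave 7 members, all higher at 4 °C, where 2.58% of all genes tested were higher and 4.17% lower. The same 7 members, Cd79a, Cd79b, Cd37, Cd72, Fcmr, Blnk and Fcrla, had CPM that did not overlap between the temperatures, all higher at 4 °C, beside 11.0% of all genes that were so higher and 5.41% that were lower. Since the contrast was used in the choice of the members, nothing is read from these counts. Without 30 °C replicate 3 the count of 7 members at an unadjusted p under 0.05 with edgeR became 22, beside 1477 of 15786 genes tested. It became 1 without 30 °C replicate 1 (913 of 15838 genes) and 0 without 30 °C replicate 2 (520 of 16026 genes). The main fit had 1090 of 16133 genes at this threshold. The median of the members moved with single libraries. It was 0.92 without 30 °C replicate 3, 0.31 without 30 °C replicate 1 and 0.35 without 4 °C replicate 1, and in the last case 7 members (Cr2, Syk, Lyn, Pax5, Ebf1, Bach2 and Notch2) were below 0.

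**Figure D2:**
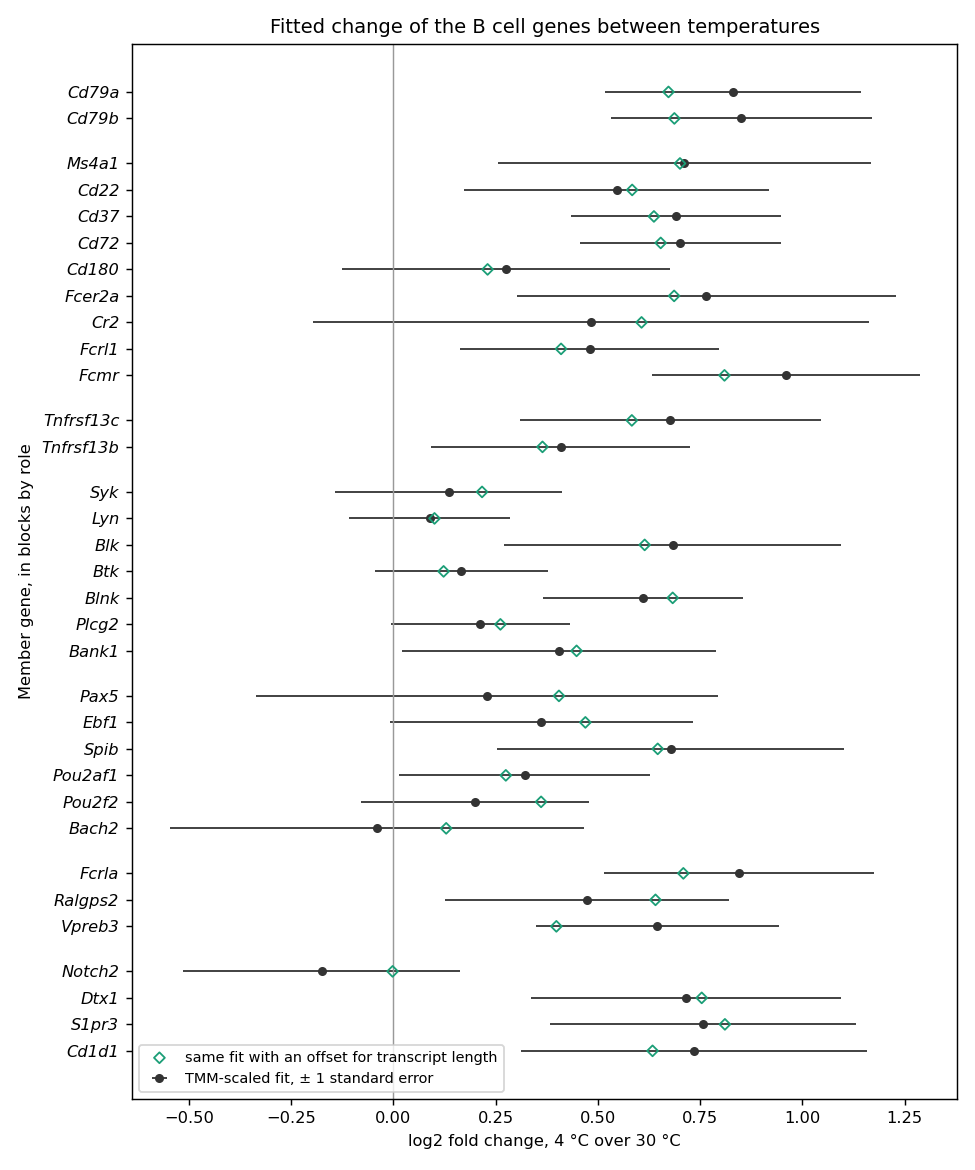
Fitted log2 fold change, 4 °C over 30 °C, of each B cell gene with 1 standard error (filled circles, TMM scaling) and from the same fit with an offset for transcript length (open diamonds). Of the 33 circles 31 lie above 0, and only Notch2 lies below 0 with the offset.

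Of the 33 members, 9 were listed for their use outside B cells (Syk, Lyn, Plcg2, Btk, Ebf1, Notch2, S1pr3, Cd1d1 and Cd37). The list is not complete, and genes among the other 24 may be expressed in other cells as well. The median log2 fold change was 0.21 in the 9 (−0.18 to 0.76), beside 0.63 for the other 24 (−0.04 to 0.96), and these ranges overlap. The fitted change of the members also fell with transcript length (Spearman's rho −0.65), and the part of length in this difference was not tested. Without the acinar genes in the totals, the ratio of the highest to the lowest library had a median of 2.03 in the 9 (1.42 to 3.43) and 2.66 in the 24 (1.82 to 5.22). On all counts the ratio over the 33 members had a median of 2.90 (2.06 to 5.22), beside 2.05 over the 16029 tested genes above 0 in every library.

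The receptor's signal chains were the most abundant members per length. Cd79a (GRCm38 chr7:24897381-24902197) stood at 356, 299 and 747 CPM at 30 °C and at 854 and 897 CPM at 4 °C, means of 468 ± 244 (SD, n = 3) and 875 ± 30.5 (SD, n = 2), with a log2 fold change of 0.83 (SE 0.31). Cd79b (chr11:106311341-106314762), its partner in the heterodimer, stood at 237, 221 and 523 CPM at 30 °C and 603 and 645 CPM at 4 °C, with a log2 fold change of 0.85 (SE 0.32). For both genes the 4 °C libraries lay above all 30 °C libraries, and 30 °C replicate 3 was nearer to them than to the other 30 °C libraries. The ratio of Cd79b to Cd79a counts kept within 0.664 to 0.740 in the 5 libraries, while both genes varied about 3-fold.

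The 9 surface proteins all had positive fitted changes, with a median of 0.69 (0.27 to 0.96). Fcmr, the Fc receptor for IgM, had the highest of all members at 0.96 (SE 0.33), with 121, 105 and 274 CPM at 30 °C and 327 and 355 CPM at 4 °C. Ms4a1, which encodes CD20, stood at 214, 249 and 691 CPM at 30 °C and 797 and 534 CPM at 4 °C, so that 30 °C replicate 3 lay between the cold libraries, and its log2 fold change was 0.71 (SE 0.46). The tetraspanin Cd37 had 209, 152 and 365 CPM at 30 °C and 399 and 422 CPM at 4 °C. Fcmr and Cd37 thus differed between the groups without overlap, by a margin over 30 °C replicate 3 that was small beside the spread within the 30 °C group. Cd72, an inhibitory lectin-type receptor, had 67.5, 42.8 and 107 CPM at 30 °C and 123 and 124 CPM at 4 °C, and 41.6% of its exon bases are shared with the antisense gene Tesk1, whose reads cannot be told apart here as no strand setting is stated. In all, 23 members share no exon base with another gene and 8 overlap an antisense gene, among them Pax5 (8.60% of exon bases) and Bach2 (5.40%).

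Cr2, the receptor for complement-tagged antigen that is abundant on marginal zone B cells, spanned the widest range of all members, and its values per library, like those of Pax5, Bach2 and Notch2, were picked out after they were seen. It had 95.3, 150 and 478 CPM at 30 °C and 497 and 215 CPM at 4 °C, a 5.22-fold range, with a log2 fold change of 0.48 (SE 0.68). The cold libraries differed from each other by more than their mean differed from that at 30 °C. Counts of Cr2 per count of Cd79a were 0.267, 0.503 and 0.640 at 30 °C and 0.582 and 0.239 at 4 °C. In proportion to Cd79a, Cr2 was therefore low in 30 °C replicate 1 and 4 °C replicate 2 and high in the other 3. The longest transcript of Cr2 is 6212 bases and that of Cd79a 1457 bases. Over all genes, the log2 ratio of 4 °C replicate 2 to replicate 1 had a median of −0.41 above 4 kb and 0.29 up to 2 kb. For 30 °C replicate 1 over replicate 3 these medians were −0.33 and 0.15. The part of length in the ratio of Cr2 to Cd79a was not tested. The remaining surface genes, the inhibitory lectin Cd22, the Toll-like receptor relative Cd180, the low-affinity IgE receptor Fcer2a and Fcrl1, had fitted changes of 0.27 (Cd180) to 0.77 (Fcer2a) and overlapped between the groups.

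Of the survival factor receptors, Tnfrsf13c, which encodes the BAFF receptor, had 59.4, 47.6 and 144 CPM at 30 °C and 154 and 125 CPM at 4 °C, with a log2 fold change of 0.68 (SE 0.37). Tnfrsf13b, which encodes TACI, had a smaller fitted change of 0.41 (SE 0.32). In both genes 30 °C replicate 3 lay between the cold libraries.

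The 7 kinases, adaptors and the phospholipase had a lower median, 0.21 (0.09 to 0.68). Blk, a Src-family kinase used mainly in B cells, had 67.3, 72.5 and 200 CPM at 30 °C and 210 and 173 CPM at 4 °C, with a log2 fold change of 0.68 (SE 0.41). Lyn, a Src-family kinase that myeloid cells use as well, had 339, 181 and 373 CPM at 30 °C and 370 and 299 CPM at 4 °C, with a log2 fold change of 0.09 (SE 0.20). The genes parted mainly in 30 °C replicate 1, where Blk was lowest and Lyn was close to its highest value. Lyn counts per Blk count were 5.04, 2.50 and 1.86 at 30 °C and 1.76 and 1.73 at 4 °C. The summed level of 8 neutrophil genes was likewise highest in 30 °C replicate 1 and next in 30 °C replicate 2, at 13236, 6146 and 3259 CPM at 30 °C and 2639 and 4052 CPM at 4 °C, and its part in the Lyn values was not tested. Blnk, the adaptor that joins Syk to Btk and Plcg2, had 78.4, 66.2 and 139 CPM at 30 °C and 155 and 152 CPM at 4 °C and was the one gene of this group without overlap. Syk, Btk, Plcg2 and the scaffold Bank1 had fitted changes of 0.13 to 0.40 and overlapped.

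The 6 transcription factors had a median of 0.27 (−0.04 to 0.68), and all 6 overlapped between the groups. Spib, an Ets-family factor of mature B cells, had 132, 121 and 382 CPM at 30 °C and 402 and 305 CPM at 4 °C, with a log2 fold change of 0.68 (SE 0.43). Pou2af1, the coactivator of octamer-binding factors, had 220, 166 and 439 CPM at 30 °C and 406 and 316 CPM at 4 °C, with a log2 fold change of 0.32 (SE 0.31). Pax5, the factor that commits precursors to the B lineage, had 110, 137 and 430 CPM at 30 °C and 366 and 190 CPM at 4 °C, with a log2 fold change of 0.23 (SE 0.57). For Pou2af1 and Pax5 the highest library was at 30 °C. Bach2, a repressor that holds back plasma cell differentiation, likewise peaked in 30 °C replicate 3, with 26.7, 29.9 and 85.5 CPM at 30 °C and 65.0 and 32.5 CPM at 4 °C. Its log2 fold change of −0.04 (SE 0.51) was far smaller than its error, and its sign turned with the libraries used. It was 0.49 without 30 °C replicate 3, 0.34 without 4 °C replicate 2 and 0.46 with the replicate number as a block, and −0.58 without 4 °C replicate 1. It was also above 0 with upper-quartile scaling and with the offset for transcript length. Ebf1 and Pou2f2 had fitted changes of 0.36 and 0.20.

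Among the other intracellular proteins, Fcrla, an Fc receptor relative kept inside the cell, had 55.5, 54.9 and 131 CPM at 30 °C and 156 and 150 CPM at 4 °C, means of 80.5 ± 43.7 (SD, n = 3) and 153 ± 4.06 (SD, n = 2), with a log2 fold change of 0.84 (SE 0.33). The groups did not overlap, and 30 °C replicate 3 was again far above the other 30 °C libraries. Vpreb3, a relative of the surrogate light chain and the shortest member, had 8.59 to 28.2 CPM over the 5 libraries and the signalling regulator Ralgps2 64.9 to 163 CPM, and both overlapped.

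Of the 4 marginal zone genes, S1pr3, a sphingosine 1-phosphate receptor, had the largest fitted change at 0.76 (SE 0.37), with 20.1, 23.3 and 50.1 CPM at 30 °C and 69.0 and 44.4 CPM at 4 °C. Dtx1, a gene that Notch signalling induces, had 93.3, 95.3 and 243 CPM at 30 °C and 294 and 206 CPM at 4 °C, with a log2 fold change of 0.72 (SE 0.38). Notch2 itself had 125, 86.2 and 235 CPM at 30 °C and 172 and 105 CPM at 4 °C, with a log2 fold change of −0.18 (SE 0.34). All 3 genes overlapped between the groups, and Notch2 was highest in 30 °C replicate 3. Dtx1 counts per Notch2 count were 0.747, 1.11 and 1.03 at 30 °C and 1.71 and 1.97 at 4 °C. This ratio was above 1.11 in both cold libraries and in no 30 °C library, and it was chosen after the values were seen. The longest transcript of Notch2 is 10500 bases and that of Dtx1 4035 bases. Cd1d1, which presents lipids to T cells and whose reads may be shared with its close copy Cd1d2, had 15.6 to 52.0 CPM over the 5 libraries and overlapped.

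Levels of different genes can be compared only per length, and per kb of the longest annotated transcript the order was led by Cd79a with a mean of 433 CPM per kb over the 5 libraries, Cd79b with 312, Ms4a1 with 162, Fcmr with 148, Cd37 with 122 and Pou2af1 with 121. These means weigh the libraries with high B cell levels most. Cd37 was above Pou2af1 in 1 of the 5 libraries, and Lyn was the third of the members in 30 °C replicate 1. Cd79a was the first and Cd79b the second of the 33 in every library. At the other end stood Bach2 with 5.39 CPM per kb, S1pr3 with 9.27 and Ebf1 with 10.1. Of the 32 pairs of neighbours in this order, 7 held their order in all 5 libraries, so that most neighbours did not differ beyond the spread. The share of Cd79a in the summed per-kb level of the members was 17.1%, 16.9% and 16.6% at 30 °C and 17.6% and 20.9% at 4 °C. The share of this gene was thus alike in the 30 °C libraries and 4 °C replicate 1, although the summed CPM of these libraries ran from 3341 to 8958. Shares of some other members varied more over the 5 libraries, such as those of Cr2 (1.07% to 2.49%) and Lyn (2.94% to 6.86%). Others varied less in proportion than that of Cd79a, such as the share of Tnfrsf13c (1.97% to 2.34%).

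The cold libraries differed from each other in a way that followed transcript length. Over the 33 members, the log2 ratio of 4 °C replicate 2 to 4 °C replicate 1 was lower for longer transcripts (Spearman's rho −0.74, across genes that share the same 2 libraries), and over 15919 genes tested rho was −0.44. The ratio had a median of 0.07 in the 7 members of up to 2 kb, −0.32 in the 13 of 2 to 4 kb and −0.64 in the 13 above 4 kb, beside 0.29, −0.02 and −0.41 over all genes of these lengths. By these medians the members were lower in 4 °C replicate 2 than all genes of like length in each class. The other 3 pairs examined had smaller values over the members. For 30 °C replicate 3 over 4 °C replicate 1 rho was 0.39 (0.18 over all genes). For 30 °C replicate 1 over replicate 3 it was −0.12 (−0.29 over all genes). For 30 °C replicate 2 over replicate 3 it was 0.01 (−0.17 over all genes). The fitted log2 fold change ran with length in the same direction (rho −0.65 over the members, −0.25 over all genes), and the part of length in the low or negative values of long genes such as Pax5, Bach2 and Notch2 was examined by an offset for transcript length, an alternative chosen after seeing the data. With it the log2 fold change of Bach2 was 0.13, that of Notch2 −0.002 and that of Pax5 0.41, the median of the members was 0.58, and rho with length was −0.34.

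**Figure D3:**
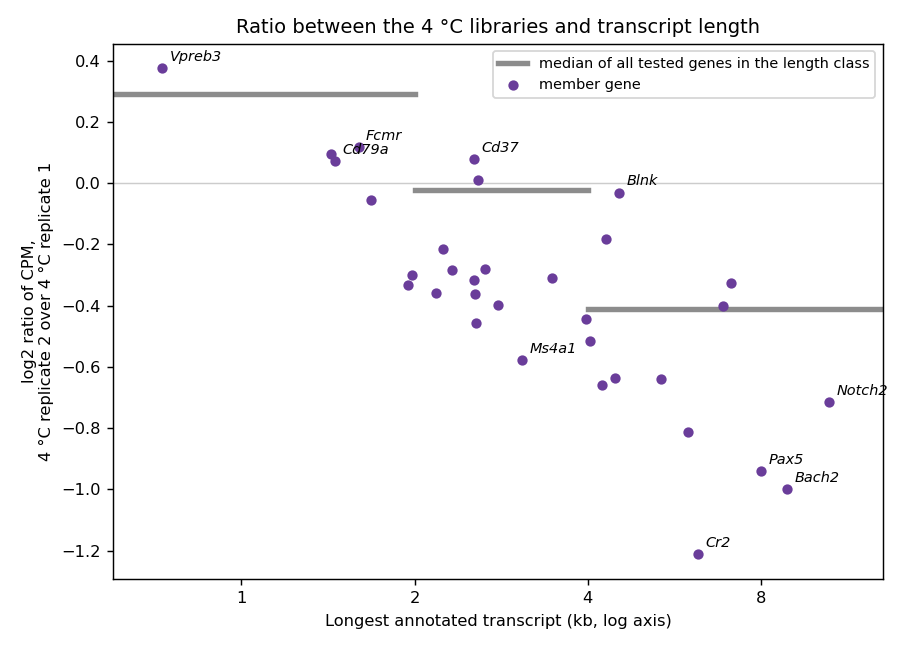
log2 ratio of CPM between 4 °C replicates 2 and 1 (vertical axis) against the longest annotated transcript in kb (log axis) for the 33 B cell genes (points), with the median of all tested genes in 3 length classes (grey bars). The points run from Vpreb3, the shortest gene and the highest ratio, to Cr2, Bach2 and Pax5 near or below −0.94.

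The other genes of the B cell receptor pathway had mostly positive fitted changes, and as edgeR called 0 of the 16133 genes tested, a count of 0 called among them is that of the background. Of 27 listed genes 26 were in the table and tested, 23 had a positive and 3 a negative log2 fold change, 0 passed an adjusted p of 0.05 with edgeR or DESeq2 or an unadjusted p of 0.05 with edgeR, and the median was 0.21. The genes with the smallest p were the signalling adaptor of NF-κB activation Bcl10, with means of 60.3 ± 19.4 CPM at 30 °C and 84.7 ± 4.67 CPM at 4 °C (log2 fold change 0.41, SE 0.18, edgeR adjusted p = 0.743), the membrane adaptor Lat2 (0.54, SE 0.26, adjusted p = 0.765) and the inhibitory adaptor Dok3 (0.37, SE 0.19, adjusted p = 0.776). Among 13 other transcription factors of the B lineage, all 13 had positive changes (0.03 to 0.80, median 0.28), and 0 passed the adjusted threshold with edgeR or DESeq2. Beside 2.58% of all genes tested that were higher at an unadjusted p under 0.05 with edgeR, 2 of the 13 were so. These were Klf2, a factor of quiescent and recirculating lymphocytes, with 120, 69.5 and 144 CPM at 30 °C and 192 and 215 CPM at 4 °C (0.80, SE 0.19, edgeR adjusted p = 0.689), and the E protein inhibitor Id3 (0.72, SE 0.19, adjusted p = 0.689). Irf8, a factor of B cells and myeloid cells, had 0.41 (SE 0.27, adjusted p = 0.829). Klf2 and Id3 were named for their small p. They were not members and were higher in both cold libraries than in every 30 °C library, as were 11.0% of all genes tested.

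Lists of other cell types varied beside the B cell genes. The summed level of 12 T cell genes was 338, 274 and 579 CPM at 30 °C and 760 and 696 CPM at 4 °C, and that of 9 genes of follicular dendritic and splenic stromal cells 647, 584 and 1351 CPM at 30 °C and 1821 and 1599 CPM at 4 °C. Both were low in 30 °C replicates 1 and 2, as the B cell genes were, with 30 °C replicate 3 between these and the cold libraries. Of the T cell genes 8 of 12, and of the stromal genes 5 of 9, were higher at 4 °C at an unadjusted p under 0.05 with edgeR (2.58% of all genes tested), with medians of 0.82 and 0.86 and 0 called. Within the B lineage, 8 plasma cell genes summed to 1632, 1418 and 2059 CPM at 30 °C and 2454 and 2013 CPM at 4 °C, and 7 germinal centre genes to 68.3, 62.9 and 132 CPM at 30 °C and 129 and 120 CPM at 4 °C. Precursor B cell genes summed to 63.3 to 113 CPM over 7 genes, most of it from Il7r and Cd93, which other cells express as well. Of the 7 genes 6 were tested, with 2 positive and 4 negative log2 fold changes. The genes of receptor assembly in precursors were low. Rag1, Igll1 and Vpreb1 lay lower in both cold libraries than in every 30 °C library, beside 5.41% of all genes tested. So did Rag2, which was not tested and had 2 counts in each cold library, below the floor of 3. Dntt, another gene of receptor assembly, overlapped between the groups, with a log2 fold change of 0.26 (SE 0.45). Il7r and Cd93 overlapped as well. Rag1, a recombinase subunit, had 1.66, 2.96 and 6.35 CPM at 30 °C and 1.29 and 0.618 CPM at 4 °C, with a log2 fold change of −2.04 (SE 0.67, edgeR adjusted p = 0.692). Igll1, a surrogate light chain gene, had 0.972, 1.51 and 1.48 CPM at 30 °C and 0.322 and 0.247 CPM at 4 °C (−2.35, SE 0.58, edgeR adjusted p = 0.689). Counts per library were few, at 4 to 30 for Igll1, 2 to 10 for Rag2 and 8 to 24 for Vpreb1, and the margin of Vpreb1 was narrow. Neutrophil genes ran the other way, with all 8 negative in the fit (median −1.37, 0 called by edgeR, 2 lower at an unadjusted p under 0.05 beside 4.17% of all genes tested), and the macrophage list varied without order, from 1773 to 4103 CPM. The part of these lists in the levels of the B cell genes was not tested.

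**Figure D4:**
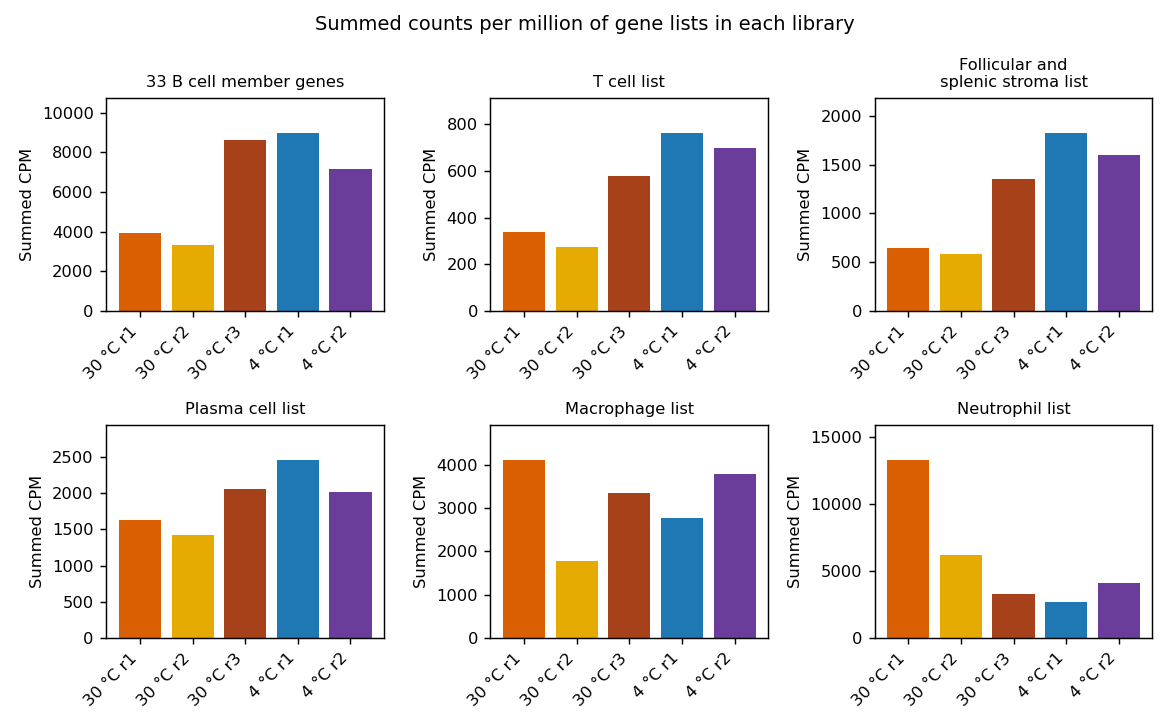
Summed CPM in each of the 5 libraries (r1 to r3 are replicates) of the 33 B cell genes and of fixed lists for T cells, follicular and splenic stroma, plasma cells, macrophages and neutrophils. Bars start at 0, and the B cell, T cell and stromal lists share low bars in 30 °C replicates 1 and 2, where the neutrophil list has its highest bars.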

How the data were processed

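RNA-seq of MC-38 tumour tissue gave 5 libraries, grouped by the labels as 3 at 30 °C and 2 at 4 °C. The deposited table holds raw counts per gene. The study's methods name featureCounts with Gencode vM19 for counting reads. The submitters' processing notes give the build GRCm38 and name fastp, HISAT and RSEM, without a role. Which tool made the deposited table is therefore not settled. Strand setting and treatment of multi-mapping reads are not given in the sources used here. Rows without a name (0.0101% to 0.0170% of counts) were left out. CPM used all named counts. Counts were filtered with filterByExpr, scaled by TMM and tested in edgeR 4.0.16 (R 4.3.3) with the robust quasi-likelihood F-test and Benjamini-Hochberg adjustment over all genes. The procedure was tested on simulated data. DESeq2 1.42.0, the test of the study, was an alternative, beside other scalings, filters, the replicate block and leaving out each library. Lengths and overlaps came from GENCODE M21, promoters from RefSeq. The length offset was a lowess (span 0.3) of log deviations on log2 length.

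The members, lists and rules were chosen with earlier results of these data known. Values per library are given for members that, in their role group, had the highest level, the largest absolute change or groups without overlap, and of each pathway list the 3 genes with the smallest p are named. Cr2, Pax5, Bach2 and Notch2 were added after their values were seen. Intervals and the floor of 3 counts cover counting error only.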

Additional observations from a re-analysis of the deposited data

How the results depend on the processing

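No gene of any kind was called in 12 of the 14 alternatives, so that the count of 0 members called says nothing about their stability. Across the 14 the median log2 fold change of the 33 members ran from 0.31 to 0.92. None of 462 fold changes of single members moved by more than the spread between libraries. This spread was wide enough to hold changes of sign, so that the count does not show that single members were stable. Bach2 ran from −0.58 to 0.49. The number of members below 0 was 7 without 4 °C replicate 1 and 0 without 30 °C replicate 3, beside 2 in the main fit. Leaving out 1 library gave medians of 0.31 (30 °C replicate 1) to 0.92 (30 °C replicate 3) for the members and called 0 genes each time. With DESeq2, 112 genes were called in all, of which 0 were members. Medians ran from −0.04 to 0.41 for the other receptor pathway genes and from 0.08 to 0.67 for the other transcription factors, with 0 genes called. The count of 7 members without overlap was the same under TMM scaling and without the acinar genes.

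The labels number the replicates alike in both groups. Deviations of same-numbered libraries from their group means correlated at −0.255 (number 1) and 0.259 (number 2). With 2 libraries at 4 °C these deviations are exact opposites, so the correlations cannot decide whether same-numbered libraries belong together. The replicate block called 44 of 16133 genes and 0 members. Its member median was 0.91, beside 0.02 over all genes tested. At an unadjusted p under 0.05 with edgeR it had 21 members, beside 977 of the 16133 genes. Nothing is read from these counts, since the contrast was used in the choice of the members. The block takes 30 °C replicate 3, whose number has no partner, out of the comparison.

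With TMM-scaled CPM, and likewise without the acinar genes, 27 members were lowest in 30 °C replicate 1, 5 in 30 °C replicate 2 and 1 in 4 °C replicate 2. Without the 9 members listed for their use outside B cells the summed CPM was 6953 in 4 °C replicate 1 and 5584 in 4 °C replicate 2. Per kb of the exon union, 3 of the 5 highest members were shared with the order by longest transcript. With 3 and 2 libraries, single libraries limit what the temperature contrast can resolve, while counting error at these depths is small.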
